A study of Mus musculus with 6 samples.

Results

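The interleukin-1 (IL-1) family and its receptors were examined in mouse thymoma cells in which the release of the intracellular domain of epithin/PRSS14 was raised or supplied. The 8 genes were taken by symbol from the table of 25001 loci: the ligands Il1a, Il1b, Il18 and Il33, the receptor antagonist Il1rn, the receptors Il1r1 and Il1rl1, and the shared receptor subunit Il1rap. No symbol repeated, and all 8 were found. RNA was sequenced in 6 libraries, 1 library per condition, all from the thymoma line 427.1.86 at passages given as 4-10. The values are FPKM, fragments per kilobase of transcript scaled to library depth, which can be compared between genes because they are per length.

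The 427 libraries came from cells of wild type genotype that stably carried the empty pSUPER vector. They received DMSO, the solvent, or 1 µM PMA, a phorbol ester that activates protein kinase C and induces shedding of membrane proteins, for 2 h after 2 h without serum. The SP2bKD libraries came from cells labelled as a knockdown of SPPL2b, the intramembrane protease that frees the epithin/PRSS14 intracellular domain (EICD), and were given DMSO or PMA in the same way. The remaining pair came from SP2bKD-10 cells transfected with a GFP vector, or with GFP plus FLAG-tagged EICD, and sorted for GFP a day later. SP2bKD-10 is 1 single-cell clone, per the study's methods a stable shRNA line, whereas the labels name an siRNA, and they do not name the clone of the libraries treated with DMSO and PMA. The GFP library therefore differed from the DMSO library of SP2bKD cells in transfection, sorting and treatment together.

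IL-1 alpha and IL-1 beta are secreted or released cytokines that bind the receptor IL-1R1. The bound receptor recruits the accessory protein IL-1RAcP, encoded by Il1rap, and signals through MyD88, the IRAK kinases and TRAF6 to NF-kappaB and MAP kinases, while IL-1Ra, encoded by Il1rn, occupies the same receptor without signalling. IL-33 uses ST2, encoded by Il1rl1, together with IL-1RAcP, and IL-18 uses its own receptor pair. Epithelial cells are known as sources of IL-1 alpha, which they hold in the cell as an active precursor.

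The estimated depth was about 24700000 to 29500000 fragments per library, and 10555 to 10873 loci reached 1 FPKM. With 1 library per condition no difference has a replicate check, no test was possible, and the intervals given are 95% counting intervals only. Sppl2b goes against its label: it was at 9.90 and 6.86 FPKM in 427 cells with DMSO and PMA, at 13.4 and 9.37 in the libraries labelled SP2bKD, and at 11.4 and 13.2 in the transfected pair. Every contrast of those libraries with 427 cells rests on a label that this gene did not bear out at the RNA level in these libraries. The study itself reports knockdown clones chosen by real-time PCR of SPPL2b mRNA, with less EICD formed after PMA. St14, which encodes epithin/PRSS14, was at 69.6 FPKM with GFP alone and 614.5 FPKM when EICD was added, where the construct shares sequence with the gene and its fragments can be counted with it. The epithelial markers Krt5, Krt14, Epcam and Cdh1 were abundant, while Krt19 was at no more than 0.657 FPKM. The 8 epithelial markers summed to 6328 to 15032 FPKM, a sum carried by Krt5 and Krt14 that was highest in the GFP library. The locus named Krt5 was an assembled one, chr15:101638928-101715551, and its value may include other genes. The 8 T cell markers summed to at most 0.340 FPKM, with Cd3e, Cd3d, Cd4 and Thy1 at 0, so the cells carried epithelial and not T cell markers. Of 7 macrophage and monocyte markers, summing to 7.07 to 12.2 FPKM, Adgre1 was at 0 and Lyz2 and Itgam were at or near 0, while Cd68, Csf1r and Cd14 were present. Fibroblast, endothelial and mast cell markers summed to at most 2.17, 0.431 and 0.154 FPKM.

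Because the agonist Il1a and the antagonist Il1rn moved together and lie on the same chromosome as the barely detected Il1b, the 250 bases before the start of each are shown, 5′ to 3′ on the gene's strand, from RefSeq on GRCm38.p6. Il1a spans chr2:129299610-129309972 on the minus strand, 54597 bases from Il1b at chr2:129364570-129371139, also on the minus strand. Il1rn lies apart from them at chr2:24336853-24351494 on the plus strand. The windows are chr2:129309973-129310222 for Il1a, chr2:129371140-129371389 for Il1b and chr2:24336610-24336859 for Il1rn. Capitals mark TATAAA and the AP-1 motif TGAGTCA or its reverse complement TGACTCA.
Il1a: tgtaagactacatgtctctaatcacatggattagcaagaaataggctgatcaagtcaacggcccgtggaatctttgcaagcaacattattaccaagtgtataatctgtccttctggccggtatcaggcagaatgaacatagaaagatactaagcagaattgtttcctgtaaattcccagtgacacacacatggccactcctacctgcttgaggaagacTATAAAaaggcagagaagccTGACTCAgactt
Il1b: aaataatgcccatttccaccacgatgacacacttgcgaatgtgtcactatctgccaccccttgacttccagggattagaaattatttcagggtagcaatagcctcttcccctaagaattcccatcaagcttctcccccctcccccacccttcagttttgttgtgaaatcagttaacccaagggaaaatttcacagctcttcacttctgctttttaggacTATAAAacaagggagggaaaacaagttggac
Il1rn: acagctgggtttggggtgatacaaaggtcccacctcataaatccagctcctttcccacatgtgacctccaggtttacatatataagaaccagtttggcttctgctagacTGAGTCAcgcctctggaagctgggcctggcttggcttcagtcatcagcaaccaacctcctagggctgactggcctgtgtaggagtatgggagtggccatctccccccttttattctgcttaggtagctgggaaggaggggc
The AP-1 motif, the letters bound by the Fos and Jun dimers that phorbol esters are known to activate, stood 12 bases before the start of Il1a and 141 bases before that of Il1rn. It was in 2 of the 13 windows of the 8 genes, with no match in the other windows of Il1rn. None of the other 6 genes had it, Il1rl1 and Il1rap among them. Over both strands it occurred in 4.46% of 32851 such mouse windows. TATAAA began 32 bases before the start of Il1a and 31 bases before that of Il1b. In windows of Il33 it began 203 and 29 bases before the start. The Il18 window had only its reverse complement TTTATA, 175 bases before the start. Over both strands TATAAA occurred in 12.4% of all windows. The cyclic AMP response element TGACGTCA was in no window of the 8 genes and in 1.55% of all windows. The NF-kappaB consensus was in 1 window, of Il1r1, and in 7.25% of all. The 8 genes had 13 windows, since several have more than 1 start. A match is a match of letters and says nothing of binding, and a motif not found says only that these letters are not in the window.

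Among the ligands, Il1a was the highest in 5 of the 6 libraries, and its level varied 29.1-fold. It was at 36.7 FPKM in 427 cells with DMSO and 405.7 after PMA, 13.9 in SP2bKD with DMSO, 160.5 in SP2bKD with PMA, 75.6 with GFP and 163.3 with GFP plus EICD. In 427 cells with PMA it ranked 170 among 22601 loci with a symbol, and in SP2bKD with DMSO it ranked 6406. Its estimated fragments ran from 701.2 to 21354, so counting error was small beside these differences.

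Il1b, the other agonist of IL-1R1, was barely detected. Its FPKM was 0.264 and 0.288 in 427 cells with DMSO and PMA, 0.197 and 0.495 in SP2bKD with DMSO and PMA, 0.315 with GFP and 0.227 with GFP plus EICD. These values correspond to 6.79 to 19.8 estimated fragments, and the gene never reached 1 FPKM. Il1a exceeded it 70.9-fold to 1409-fold within a library.

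Il18, at chr9:50554828-50582366, was the ligand that moved the other way. It was at 14.6 FPKM in 427 cells with DMSO and 7.81 after PMA, 18.9 in SP2bKD with DMSO, 11.1 in SP2bKD with PMA, 5.80 with GFP and 7.06 with GFP plus EICD. Its highest level was thus in the library where Il1a was lowest, and there Il18 was above Il1a, with a ratio of Il1a to Il18 of 0.736. That ratio was 2.51 in 427 cells with DMSO and 52.0 after PMA, 14.4 in SP2bKD with PMA, 13.05 with GFP and 23.1 with GFP plus EICD. Il18 shares 354 bases with Bco2 on the opposite strand, and the library kit does not keep strand. Bco2 was at no more than 0.509 FPKM in any library.

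Il33, an alarmin of barrier tissues, lies at chr19:29925114-29960718 and stayed below 1 FPKM throughout. It was listed at 0 in 427 cells with DMSO, where 3 fragments would be 0.0455 FPKM, and at 0.0523 FPKM with PMA. In the libraries labelled SP2bKD it was at 0.531 with DMSO, 0.121 with PMA, 0.497 with GFP and 0.418 with GFP plus EICD. The highest of these rests on 34.4 estimated fragments, so Il33 was detected in the SP2bKD libraries and at or near the limit of 3 fragments in the 427 libraries.

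Il1rn, the antagonist, moved with Il1a from a lower level. Its FPKM was 1.43 in 427 cells with DMSO and 10.6 after PMA, 1.06 in SP2bKD with DMSO, 6.55 in SP2bKD with PMA, 7.29 with GFP and 11.0 with GFP plus EICD. Both DMSO libraries were low and the other 4 high. Il1a stayed above Il1rn in every library, by 25.6-fold in 427 cells with DMSO, 38.3-fold with PMA, 13.1-fold in SP2bKD with DMSO, 24.5-fold with PMA, 10.4-fold with GFP and 14.9-fold with GFP plus EICD. The lowest ratio was in the GFP library, where the antagonist stood further above its DMSO level than the agonist, with counting intervals that overlap.

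Of the receptors, Il1r1, the signalling IL-1 receptor at chr1:40225080-40317257, was the steadiest. It was at 8.31 and 6.04 FPKM in 427 cells with DMSO and PMA, 6.10 and 5.50 in SP2bKD with DMSO and PMA, 5.74 with GFP and 8.12 with GFP plus EICD. The shared subunit Il1rap, at chr16:26581703-26730117, was at 9.64 and 25.8 FPKM in 427 cells with DMSO and PMA, 8.36 and 20.1 in SP2bKD with DMSO and PMA, 10.5 with GFP and 11.2 with GFP plus EICD. Only the PMA libraries were high for Il1rap. The level of Il1rap was 1.16 times that of Il1r1 in 427 cells with DMSO and 4.28 times with PMA, 1.37 and 3.66 times in SP2bKD with DMSO and PMA, 1.84 times with GFP and 1.38 times with GFP plus EICD.

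Il1rl1, the IL-33 receptor at chr1:40429570-40465415, was the lowest of the receptors. Its FPKM was 0.255 and 2.52 in 427 cells with DMSO and PMA, 0.690 and 3.16 in SP2bKD with DMSO and PMA, 1.51 with GFP and 1.46 with GFP plus EICD. It was highest in the PMA libraries, next in the transfected pair, which lay close together, and lowest with DMSO. The locus ends 136 bases before Il18r1. Each library is bulk RNA, in which fewer cells expressing a gene and less of its RNA per cell cannot be told apart.

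**Figure D1:**
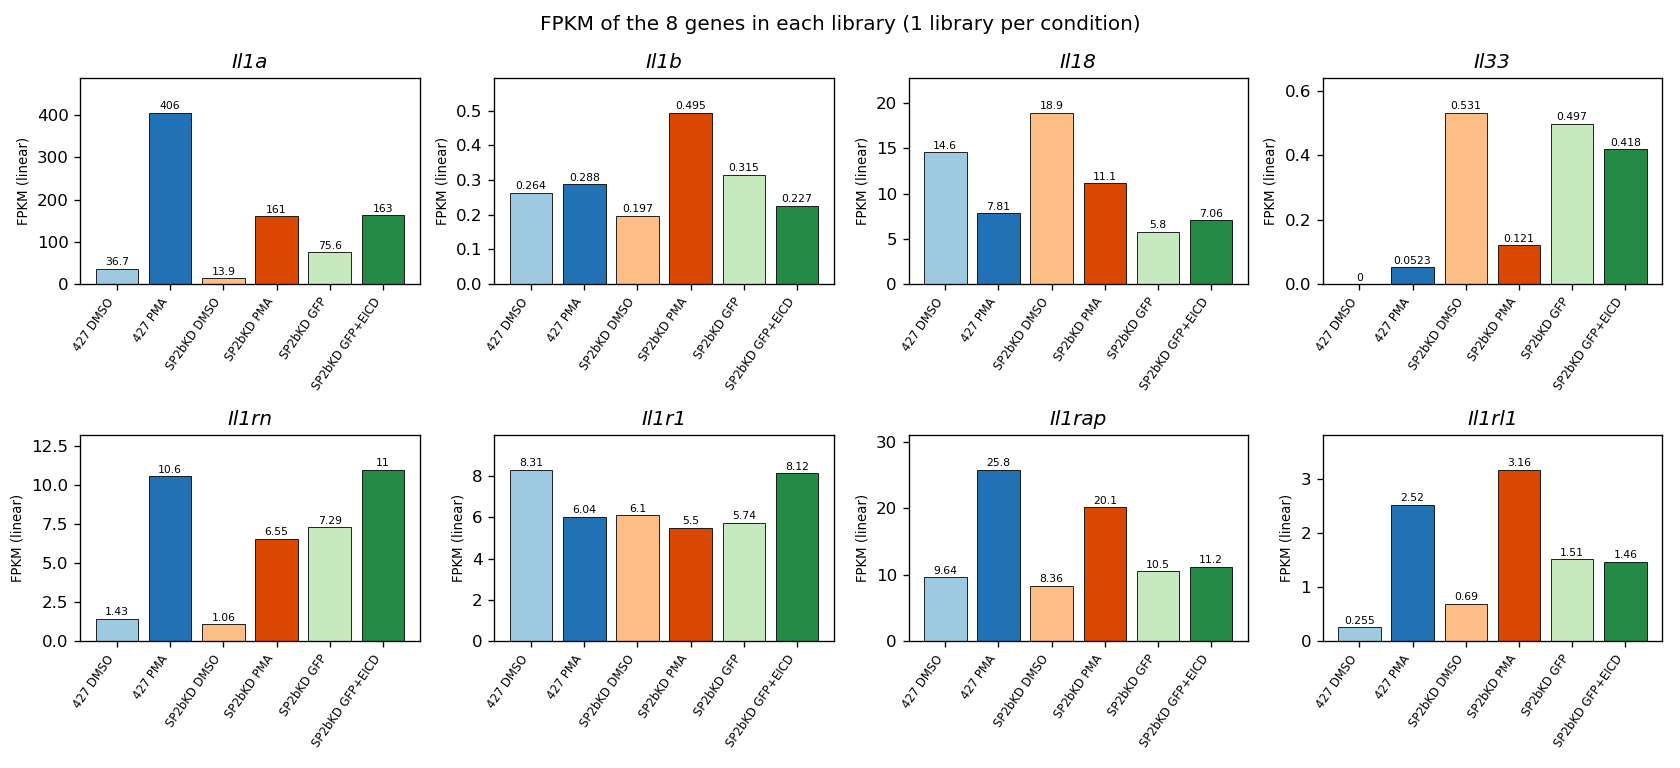
FPKM (vertical, linear, starting at 0, a different range per panel) of the 8 genes in each of the 6 libraries (horizontal), with the value above each bar and no error bars, since each condition is 1 library. Il1a runs from 13.9 to 405.7 FPKM, Il1rap is high in the PMA libraries only, and Il1b and Il33 stay below 1 FPKM.

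PMA in 427 cells, the treatment chosen to raise shedding, went with higher levels of Il1a, Il1rn, Il1rap and Il1rl1. Il1rap and Il1rl1 have 7 and 5 annotated transcripts, which a value per locus does not tell apart. Ratios are log2 of FPKM with 0.01 added to each library, and a gene is called past 2-fold only if it reached 1 FPKM in at least 1 of the libraries compared. Of the 8 genes 6 met that minimum. Of these, 4 were past 2-fold upwards and 0 downwards, where 3.91% of all 10643 loci with a symbol were higher and 4.67% lower. Il1rl1 met the minimum through the PMA library alone, and with a minimum of 10 FPKM 3 genes were past 2-fold upwards. The log2 ratio was 3.47 for Il1a (counting interval 3.40 to 3.54), an 11.1-fold difference with rank 37 from the top. It was 3.25 for Il1rl1 (2.80 to 3.85), 2.88 for Il1rn (2.57 to 3.21) and 1.42 for Il1rap (1.32 to 1.52). Il18 was 1.87-fold lower, with a log2 ratio of -0.90 (-1.17 to -0.64), and Il1r1 was at -0.46 (-0.58 to -0.34), both short of 2-fold. The median log2 ratio was 2.15 over the 6 genes and -0.12 over all loci. Of the cell markers Krt18 was past 2-fold, at 1.26, and its part was not tested. Il1b gave 0.12 with a counting interval from -1.34 to 1.59, and for Il33, listed at 0 with DMSO, no ratio was formed.

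With PMA in the libraries labelled SP2bKD, in which less EICD release was intended, the same 4 genes, Il1a, Il1rl1, Il1rn and Il1rap, were again more than 2-fold higher among 6 at the minimum, and 0 were more than 2-fold lower. Over all 10624 loci 3.51% were higher and 5.69% lower, counts of 373 and 605 that became 472 and 420 when libraries were scaled by their median ratio. The log2 ratio was 3.52 for Il1a (3.41 to 3.64), 2.61 for Il1rn (2.26 to 3.01), 2.18 for Il1rl1 (1.88 to 2.53) and 1.27 for Il1rap (1.16 to 1.38). Il18 was again short of 2-fold at -0.76 (-0.98 to -0.54), and Il1r1 was at -0.15. The median was 1.72 over the 6 genes and -0.15 over all loci. Il1rl1 again met the minimum through the PMA library alone. Il1b gave 1.29 with an interval from 0.0048 to 2.79, and Il33 -2.05 from -3.37 to -1.04, both from libraries below 1 FPKM.

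The PMA log2 ratio of 427 cells minus that of the libraries labelled SP2bKD was -0.056 for Il1a, -0.14 for Il18, 0.15 for Il1rap, 0.27 for Il1rn and -0.31 for Il1r1. Over 10422 loci this difference had quartiles of -0.14 and 0.16, so Il1a, Il18 and Il1rap lay between them, and Il1rn and Il1r1 outside. Il1rl1 stood further out with 1.07, with DMSO levels of 0.255 and 0.690 FPKM further apart than the PMA levels of 2.52 and 3.16. With 1 added to both libraries its PMA log2 ratios were 1.49 in 427 cells and 1.30 in SP2bKD, and with the same FPKM sum in each library 2.56 and 2.13. With 1 library per condition none of these differences could be tested.

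**Figure D2:**
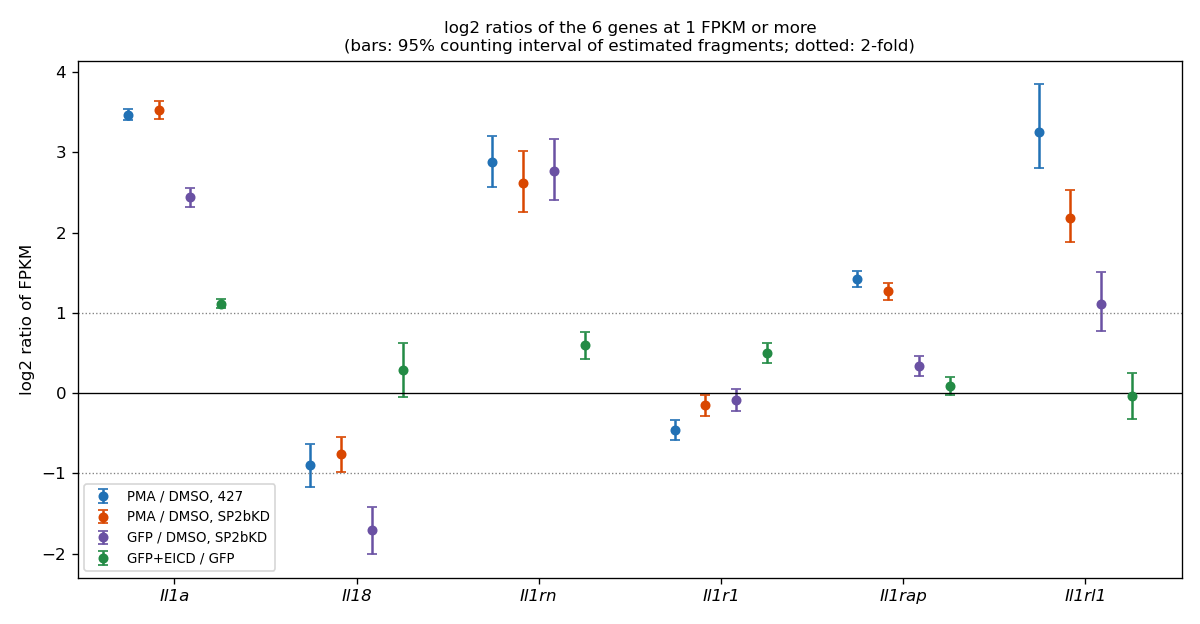
log2 ratio of FPKM (vertical) of the 6 genes that reached 1 FPKM (horizontal) for PMA against DMSO in 427 and in SP2bKD cells, GFP against DMSO in SP2bKD cells, and GFP plus EICD against GFP; bars are 95% counting intervals and dotted lines mark 2-fold. Il1a was at 3.47 and 3.52 with PMA and at 1.11 with EICD, and Il18 was below 0 in each contrast but that with EICD.

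Supplying EICD itself, in the GFP plus EICD library against the GFP library, was accompanied by a higher level of Il1a and by smaller differences in the other genes. For this contrast 0.01 was added to the EICD library only. The study's methods give a smaller amount for its plot. With that smaller amount the log2 ratio of Il1a was also 1.11. Of 6 genes at the minimum 1 was more than 2-fold higher and 0 lower; over all 10682 loci 3.58% were higher and 0.506% lower. Il1a went from 75.6 to 163.3 FPKM, a log2 ratio of 1.11 (1.06 to 1.17), and lay above 97.2% of loci. When each library was scaled to the same FPKM sum, the log2 ratio of Il1a was 0.93, short of 2-fold. The counts over all loci went from 382 higher and 54 lower to 103 and 40, out of 8463 loci then at the minimum. Il1rn was 1.51-fold higher at 0.59 (0.43 to 0.76) and Il1r1 1.42-fold higher at 0.50 (0.38 to 0.63), against a median of 0.067 over all loci. Il18 was at 0.29 (-0.053 to 0.63), an interval that includes 0. Of the cell markers Krt8 was past 2-fold, at -1.02, and its part was not tested. Il1rl1 was at -0.032 (-0.33 to 0.24) and Il1rap at 0.087 (-0.027 to 0.20), or -0.088 under the same FPKM sum. Il1rl1 and Il1rap, both higher with PMA, thus had counting intervals that included 0 with EICD.

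The GFP library already differed from the DMSO library of SP2bKD cells before EICD was added. Of 6 genes at the minimum 3 were past 2-fold upwards and 1 downwards. Over all 10687 loci 3.56% were higher and 4.14% lower, counts of 380 and 442. These became 216 and 162 under the same FPKM sum, out of 8624 loci then at the minimum. Il1rn was 6.86-fold higher, a log2 ratio of 2.77 (2.41 to 3.17), Il1a 5.42-fold higher at 2.44 (2.32 to 2.56) and Il1rl1 2.18-fold higher at 1.11 (0.77 to 1.50). With 1 added to both libraries Il1rl1 was at 0.57, short of 2-fold, and 2 genes were past it upwards. Il1rl1 met the minimum through the GFP library alone. Il18 was 3.27-fold lower at -1.71 (-2.00 to -1.42), the largest decrease of the 8 genes between any compared pair of libraries at 1 FPKM or more. Il1rap was at 0.33 (0.21 to 0.46) and Il1r1 at -0.088 (-0.23 to 0.050). Of the cell markers at the minimum, Krt5 was at 1.33, Krt14 at 1.10, Krt8 at -1.12, the macrophage marker Csf1r at -1.31 and the fibroblast marker Pdgfrb at -4.99, from 1.52 to 0.0380 FPKM; their part in these differences was not tested. Transfection, sorting, the absence of the DMSO treatment, serum withdrawal, which the labels give for the DMSO library alone of this pair, and a possible difference in clone cannot be told apart here. The contrast shares the DMSO library with the PMA contrast of SP2bKD cells, so Il1a at 2.44 and 3.52 and Il1rn at 2.77 and 2.61 in them rest on the same low denominators, 13.9 and 1.06 FPKM.

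**Figure D3:**
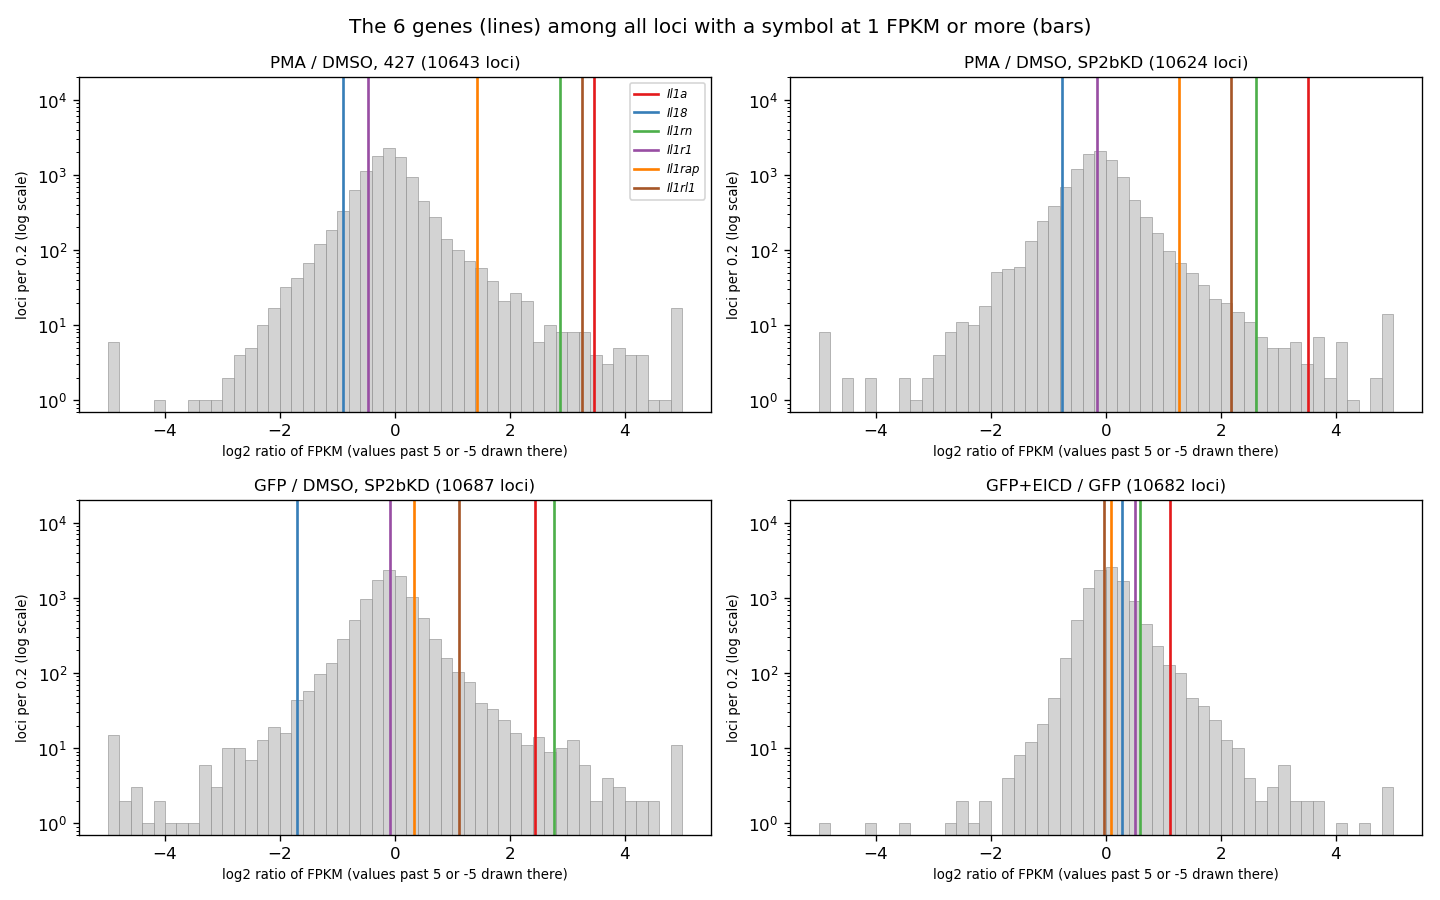
Number of loci per 0.2 of log2 ratio (vertical, log scale; horizontal, log2 ratio of FPKM) among all loci with a symbol at 1 FPKM or more, for the same 4 contrasts, with coloured lines at the 6 genes. The lines of Il1a and Il1rn lie in the right tail in the PMA and GFP panels, and in the EICD panel Il1a alone lies beyond 1.

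Between the cell lines, Il1a was lower in the libraries labelled SP2bKD with either treatment. With DMSO 5 genes met the minimum; 0 were past 2-fold upwards and 1, Il1a, downwards, where 3.11% of 10706 loci were higher and 2.76% lower. With PMA 6 met it, with 0 higher and again Il1a as the 1 lower, where 2.19% of 10518 loci were higher and 2.75% lower. The log2 ratio of Il1a, SP2bKD over 427, was -1.39 (-1.52 to -1.27) with DMSO and -1.34 (-1.37 to -1.30) with PMA, 2.63-fold and 2.53-fold lower. Il1rn was at -0.42 (-0.91 to 0.025) and -0.69 (-0.86 to -0.53), and Il18 at 0.38 (0.17 to 0.59) and 0.51 (0.25 to 0.79). Il1r1 was at -0.45 with DMSO and -0.14 with PMA, and Il1rap at -0.21 and -0.36. Il1rl1 was at 1.40 with DMSO, where both libraries were below 1 FPKM, and at 0.33 with PMA. The markers Krt8, at 1.96 with DMSO and 1.56 with PMA, and Pdgfrb, at 1.75 and 2.00, were higher in SP2bKD, and their part was not tested. Scaling each library to the same FPKM sum moved the median of all loci to 1.01 with DMSO and 1.26 with PMA, because the 10 largest loci hold 85.6% to 94.2% of the sum and the sum itself was 12500000 and 14800000 FPKM in the 427 libraries but 6370000 and 6240000 FPKM in the SP2bKD libraries. Under it Il1a was at -0.42 and -0.090, still below those medians. Il1rn turned to 0.50 and 0.55, Il1r1 to 0.52 and 1.09 and Il1rap to 0.75 and 0.88, each also below the median of its contrast. Of 8434 loci then at the minimum, 4368 were higher and 17 lower with DMSO. With PMA 6791 were higher and 14 lower of 8123. The label of these libraries was not borne out by Sppl2b, and a clone can differ from its parent line, so that knockdown and clone cannot be told apart.

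The other genes of the pathway were taken from lists of ligands, receptors and decoys, receptor signalling, and processing and release. Of 5 other family ligands in the files, 1 reached 1 FPKM: Il1f6, which encodes IL-36 alpha, was at 0.306 and 1.54 FPKM in 427 cells with DMSO and PMA, 0.0523 and 0.275 in SP2bKD with DMSO and PMA, 0 with GFP and 0.0479 with GFP plus EICD. Its PMA log2 ratio in 427 cells was 2.29, where 3.91% of all loci were more than 2-fold higher. Between the lines with PMA Il1f6 was lower in SP2bKD at -2.44, where 2.75% of all loci were more than 2-fold lower. In both contrasts it was the only ligand of the list at the minimum, which it met through the 427 library with PMA alone. Like Il1a it was higher with PMA and lower in SP2bKD. In the transfected pair, where Il1a was at 75.6 and 163.3 FPKM, Il1f6 was at or near 0.

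Of 8 other receptors and decoys, 3 met the minimum in the PMA contrasts. Their medians were 0.40 in 427 cells and 0.91 in SP2bKD, beside -0.12 and -0.15 over all loci. Il18rap, an IL-18 receptor subunit, was the 1 more than 2-fold higher, beside 3.91% of all loci in 427 cells and 3.51% in SP2bKD. It went from 1.62 to 4.18 FPKM in 427 cells (log2 ratio 1.36) and from 0.891 to 2.83 in SP2bKD (1.66). In SP2bKD it met the minimum through the PMA library alone. It was at 0.824 with GFP and 0.390 with GFP plus EICD. Its partner Il18r1 was at 10.4 and 12.6 FPKM in 427 cells with DMSO and PMA, and at 6.01 and 11.3 in SP2bKD. With GFP Il18r1 was at 14.3 FPKM and with GFP plus EICD at 9.86. It was more than 2-fold higher with GFP than with DMSO in SP2bKD (1.25), as were 3.56% of all loci. Il18 itself was at -0.90 and -0.76 with PMA and at -1.71 with GFP in the same contrasts. Il18bp, which encodes a soluble decoy for IL-18, ran from 1.11 to 2.16 FPKM. The decoy receptor Il1r2 was at no more than 0.0828 FPKM, and Il1rapl1 and Il1rapl2 were at 0.

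Of 21 receptor signalling genes, 18 met the minimum in each contrast. With PMA, 0 were past 2-fold in either line, with medians of -0.091 in 427 cells and -0.025 in SP2bKD beside -0.12 and -0.15 over all loci. Over all loci 3.91% were higher and 4.67% lower in 427 cells, and 3.51% and 5.69% in SP2bKD, so a count of 0 of 18 lies near the shares of all loci. Peli2 was listed at 0. The most abundant were Chuk, Ube2n and Tab2. The locus named Chuk was an assembled one, chr19:44073335-44135879, and its value may include other genes. Irak2, an IRAK that carries the receptor signal to TRAF6, was the 1 gene past 2-fold in another contrast: it was at 5.84 and 9.43 FPKM in 427 cells with DMSO and PMA, 8.53 and 10.3 in SP2bKD, 2.92 with GFP and 6.59 with GFP plus EICD. It was lower with GFP than with DMSO (log2 ratio -1.54) and higher with EICD than with GFP (1.18). Over all loci 4.14% were lower with GFP and 3.58% higher with EICD, so 1 of 18 lies near these shares. The adaptor Myd88 ran from 7.27 to 10.6 FPKM.

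Of 21 processing and release genes, the calpains Capns1 and Capn2, subunits of the proteases that cut the IL-1 alpha precursor, and Hax1, which binds that precursor, were the most abundant. With PMA, 2 of 10 genes at the minimum were past 2-fold upwards in 427 cells (median 0.24), where 3.91% of all loci were. In SP2bKD 0 of 9 were (median 0.049), where 3.51% of all loci were, with 0 downwards in either. The 2 genes, Casp4 and Aim2, met the minimum through the PMA library alone, so the count of 10 itself depends on their rise. Capns1 ran from 90.9 to 108.6 FPKM and differed by no more than 0.26 on the log2 scale in any contrast. Casp1, the protease that matures IL-1 beta and IL-18, ran from 1.03 to 2.06 FPKM, and Nlrp3 and Pycard, which assemble its platform, reached no more than 0.203 and 0.0534 FPKM. Gsdmd and Nlrp1a were listed at 0. Casp4, the inflammatory caspase of mice also called caspase-11, was at 0.515 and 2.68 FPKM in 427 cells with DMSO and PMA, 0.0539 and 0.908 in SP2bKD, 0.150 with GFP and 0.527 with GFP plus EICD. In SP2bKD its PMA log2 ratio was 3.84, but neither library reached 1 FPKM, so it was not counted there. It was higher with PMA in 427 cells (2.36) and lower in SP2bKD than in 427 cells with PMA (-1.55). In that contrast of lines it was the 1 of 10 genes past 2-fold downwards, beside 2.75% of all loci, and met the minimum through the 427 library alone. Aim2, a cytosolic DNA sensor, was the other gene higher with PMA in 427 cells, from 0.468 to 1.36 FPKM (1.52), and it was higher in SP2bKD than in 427 cells with DMSO (1.69). There Aim2 was the 1 of 9 genes past 2-fold upwards, beside 3.11% of all loci, and met the minimum through the SP2bKD library alone.

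**Figure D4:**
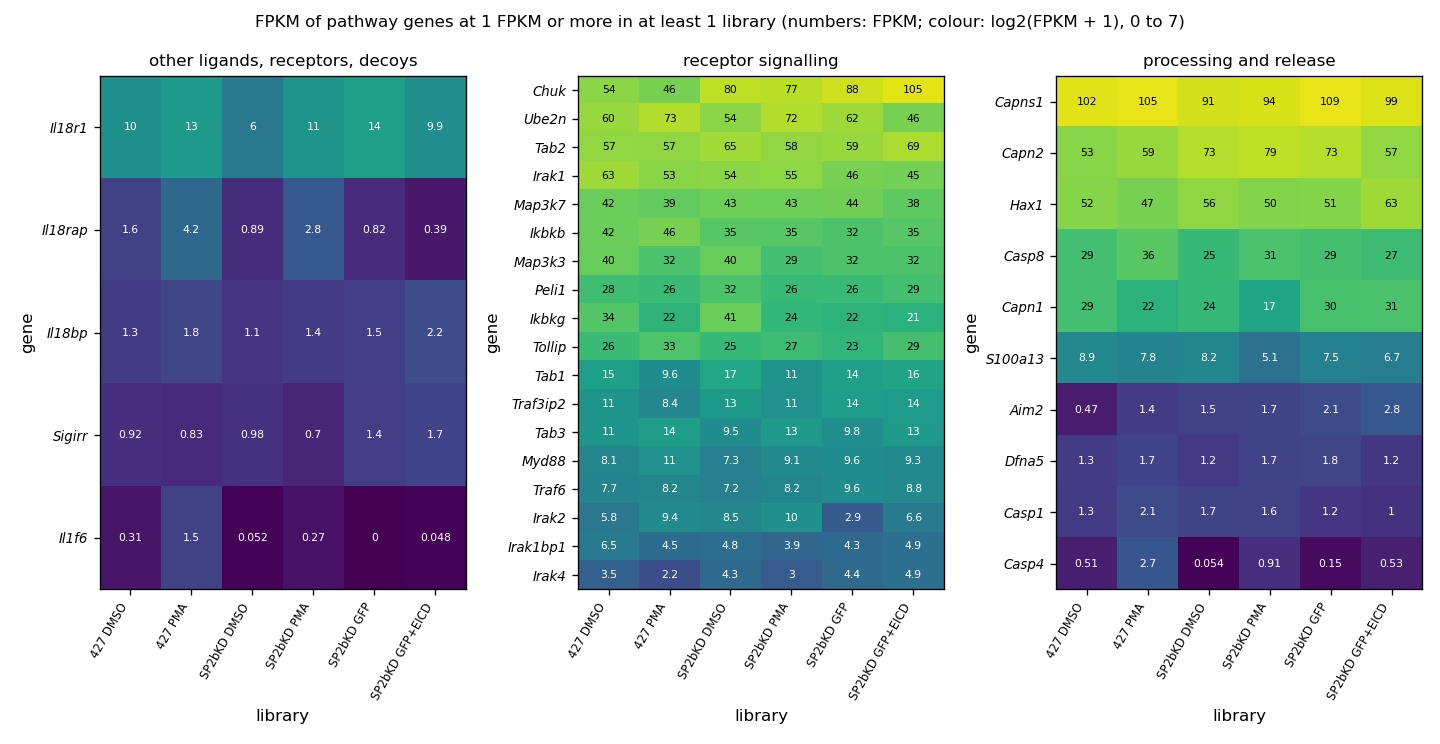
FPKM (printed in each cell; colour is log2 of FPKM plus 1, from 0 to 7) of the other ligands, receptors and decoys, the receptor signalling genes and the processing and release genes (rows) that reached 1 FPKM in at least 1 of the 6 libraries (columns). Among the signalling rows Irak2 drops to 2.92 FPKM with GFP and Chuk, an assembled locus, runs from 46.1 to 104.7 FPKM. Il18rap and Casp4 are higher with PMA.

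By distance between profiles of log2(FPKM + 1) over the 6 libraries, each centred on its mean and compared with 10543 genes, the genes most like Il1a were Cxcl5, Areg and Lif, at distances of 0.37, 0.52 and 0.61. Cxcl5, a chemokine, was at 21.8, 195.4, 8.98, 88.3, 40.9 and 100.6 FPKM in the library order used above, from 427 cells with DMSO to GFP plus EICD. From highest to lowest, the 6 libraries stood in the same order for Cxcl5, for Areg, a ligand of the EGF receptor, and for Lif, a cytokine of the IL-6 family, as for Il1a. The choice of these genes by nearness to Il1a favours such a shared order. Nearest to Il1rn were a newly assembled locus named pol, Zc3h12a and Ankrd22 (0.43, 0.68 and 0.73), and nearest to Il18 were Gm7879, Trp53inp2 and Rsrp1 (0.28, 0.31 and 0.33). Il1rap was nearest to Rbms1, Phc2 and Uaca (0.15, 0.19 and 0.22), all about evenly raised in the PMA libraries. Il1r1 was nearest to BC024978, Pola1 and St7l (0.093, 0.15 and 0.15). The profiles rest on the same 6 libraries and carry no p.

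**Figure D5:**
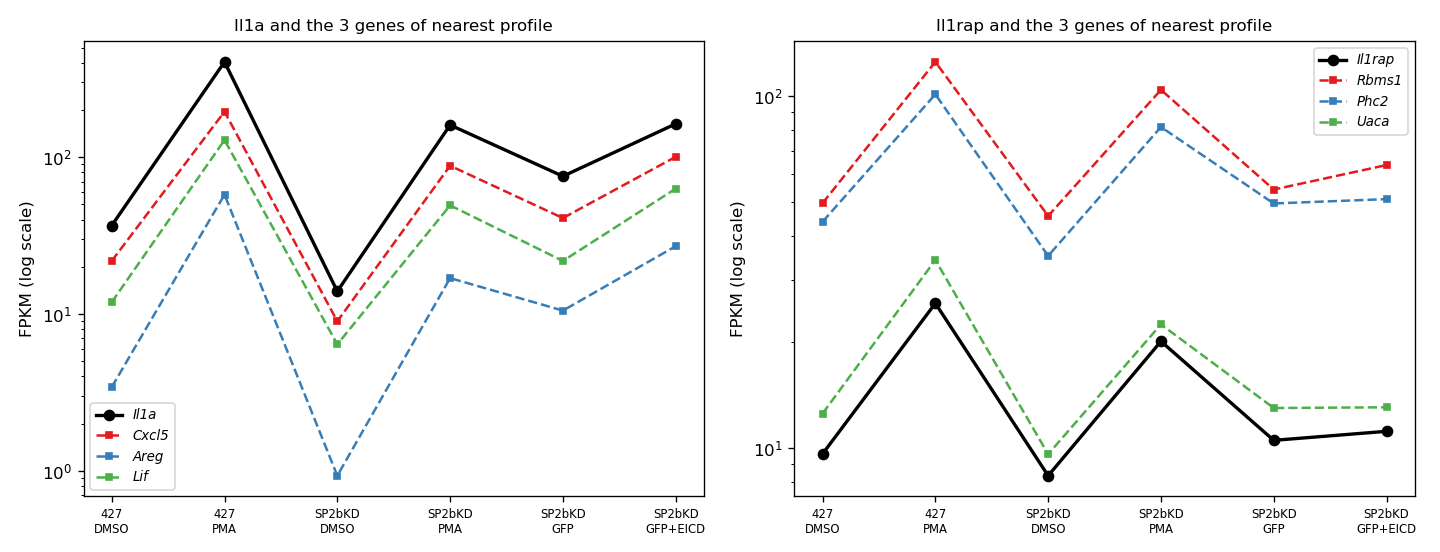
FPKM (vertical, log scale) across the 6 libraries (horizontal) of Il1a (left, black) and Il1rap (right, black) with the 3 genes of nearest profile (dashed), 1 value per library. Il1a, Cxcl5, Areg and Lif are lowest in SP2bKD with DMSO and highest in 427 cells with PMA, and the Il1rap group is high in the PMA libraries.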

How the data were processed

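RNA was enriched with oligo dT and sequenced from unstranded libraries as paired ends, 1 library for each of 6 conditions. Per the labels, the submitters' processing notes list TopHat2 2.1.1, STAR 2.4.0b, Cufflinks 2.1.1 and Cuffdiff 2.1.1, with no role given for each. The authors deposited FPKM values, 1 per locus and library, over 25001 loci on GRCm38 that include newly assembled isoforms, so a value depends on the assembled gene model. Of these, 22601 carry a symbol.

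From the deposited FPKM, log2 ratios were computed with 0.01 added (for EICD, to the GFP plus EICD library only, among loci at 0.01 FPKM or more in the GFP library) in Python 3.11.15 with NumPy 2.4.6, pandas 2.3.3 and SciPy 1.17.1. Plots were drawn with matplotlib 3.10.9. Loci with a symbol and 1 FPKM or more in at least 1 compared library were counted past 2-fold. Depth was estimated from the steps between low FPKM values, with the scale set by transcripts over 2500 bases. Fragments per gene were taken from FPKM, the longest annotated transcript and that depth, and are upper estimates. Counting intervals are exact (Clopper-Pearson) binomial 95% intervals on those fragments and cover counting error only. No p-value was computed, since each condition has 1 library. The steps were tested on simulated data. Other amounts added, minima and scalings were tried, and depth was also scaled from each library alone.

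The named genes are the 8 members; of the pathway lists, genes past 2-fold at 1 FPKM or more, the 3 most abundant and genes at 0; the 3 nearest profiles of each member at 1 FPKM or more; and Sppl2b and St14. The nearest profiles of 1 member are not reported here. A few genes outside this rule (Il1r2, Myd88, Casp1, Nlrp3, Pycard and the cell markers) were named after their values were seen. Members and lists were chosen with earlier results of these data known. Motifs were searched in RefSeq promoter windows of GRCm38.p6 on both strands. Cell markers were summed per list.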

Additional observations from a re-analysis of the deposited data

Results flagged for a closer look

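Il33 went in opposite directions with PMA in the cell lines. The FPKM with PMA minus that with DMSO was 0.0523 in 427 cells and -0.41 in the libraries labelled SP2bKD. With 1 library per condition this difference was not tested, the label was not borne out by Sppl2b, and all 4 values were below 1 FPKM, with 0 and 3.55 estimated fragments in 427 cells with DMSO and PMA, a lower counting bound of -0.64 on the log2 ratio that does not separate them, and 34.4 in SP2bKD cells with DMSO.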

How the results depend on the processing

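No paired analysis was possible because each condition has 1 library. The 15 log2 ratios past 2-fold at 1 FPKM or more had 91 values under other amounts added and scalings; all 91 kept their direction and 87 stayed past 2-fold. The exceptions were Il1a under the same FPKM sum with EICD (0.93) and between the lines (-0.42 with DMSO, -0.090 with PMA), and Il1rl1 with GFP when 1 was added (0.57). Of 115 values under the alternatives, 102 moved little and 13 moved. They cover counts of genes, the level range of Il1a, the median difference of the PMA log2 ratios and the library depths. With each library at the same FPKM sum, which 10 loci dominate, PMA in 427 cells gave 2 genes higher and 1 lower. The minimum of 1 FPKM was kept on the scaled values, so Il1rn and Il1rl1, at 2.54 and 2.56, were no longer eligible there. Under this scaling EICD gave 0 higher (Il1a at 0.93), and SP2bKD against 427 cells gave 1 higher and 0 lower with either treatment. It also took the highest over the lowest level of Il1a to 12.5. With no minimum FPKM, 1 gene was lower with PMA in SP2bKD, and SP2bKD against 427 cells had 2 genes higher with DMSO and 1 with PMA; the added genes were below 1 FPKM. With a minimum of 10 FPKM, 2 genes were higher with PMA in SP2bKD and 1 with GFP, as fewer genes were eligible. With 1 added to both libraries, the PMA counts over all loci in 427 cells went from 416 higher and 497 lower to 305 and 189, and in SP2bKD cells from 373 and 605 to 292 and 275. With no minimum, they were 1415 and 1877 in 427 cells. Median ratio scaling gave 478 and 386 in 427 cells. Summing rows of a repeated symbol gave no other value, since no symbol of the 8 genes repeats. Depth limits Il1b and Il33, which rest on at most 19.8 and 34.4 estimated fragments.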
